A study of Mus musculus with 4 samples.

Results

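The genes of the muscle ankyrin repeat family and of the CCN family were followed on arrays of Neuro2a cells in which Men1 had been knocked down. Membership was set by gene name, from 3 ankyrin genes (Ankrd1, Ankrd2 and Ankrd23) and 6 CCN genes (Ccn1 to Ccn6, with the older symbols Cyr61, Ctgf, Nov, Wisp1, Wisp2 and Wisp3). Of these 9 genes, 7 had a target among the 24171 named genes, with 10 of the 44170 targets of the array. The intensities of Ankrd2 and Ccn6, for which no target was found under these names, were not analysed here. The families were selected on the difference between the Men1 siRNA and scramble siRNA intensities themselves, with results of these arrays known. That difference is therefore given for the members as a description, and nothing is read from whether a member passed a threshold.

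Neuro2a (N2a) is a mouse neuroblastoma line, grown here in serum-containing medium. The tested cells received an siRNA against Men1, which encodes the chromatin scaffold protein menin (labelled as Men1 knockdown, 2 arrays), and the control cells received scramble siRNA (labelled as control, 2 arrays). All 4 single-colour arrays were of total RNA, and the arrays of each group are numbered replicate 1 and replicate 2. Whether the replicates were separate cultures is not stated, and errors and p-values therefore cover no more than array-to-array spread, which could be technical. No label names a clone, an siRNA sequence, a dose or a time after transfection.

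Muscle ankyrin repeat proteins sit on the elastic titin filament of the sarcomere and also enter the nucleus. Ankrd1, also called CARP, is abundant in heart muscle, while Ankrd2 and Ankrd23 are known from skeletal muscle. CCN proteins are secreted, cysteine-rich proteins of the extracellular matrix that act through integrins and heparan sulfate proteoglycans. Ankrd1, Ccn1 and Ccn2 are also widely used readouts of YAP and TAZ, the co-activators held back by Hippo kinases, which reach promoters through TEAD factors. The core of the TEAD site is GGAATG.

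Promoter windows of 300 bases, from 250 bases before the gene start to 50 after it, were taken from RefSeq (GRCm38.p6) for 5 of the 9 genes. They are shown for the measured members that have one, Ankrd1, Ccn1 and Ankrd23. Capitals mark GGAATG, or CATTCC where the site lies on the other strand. The Ankrd1 window is chr19:36119795-36120094, the Ccn1 window chr3:145649936-145650235 and the Ankrd23 window chr1:36535690-36535989, all 3 on the minus strand and written 5′ to 3′ in the direction of the gene.
Ankrd1: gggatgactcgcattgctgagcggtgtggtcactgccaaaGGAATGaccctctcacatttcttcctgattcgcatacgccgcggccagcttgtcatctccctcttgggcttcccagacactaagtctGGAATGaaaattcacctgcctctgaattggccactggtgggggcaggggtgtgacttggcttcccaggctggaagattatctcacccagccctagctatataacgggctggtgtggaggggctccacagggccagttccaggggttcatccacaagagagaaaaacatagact
Ccn1: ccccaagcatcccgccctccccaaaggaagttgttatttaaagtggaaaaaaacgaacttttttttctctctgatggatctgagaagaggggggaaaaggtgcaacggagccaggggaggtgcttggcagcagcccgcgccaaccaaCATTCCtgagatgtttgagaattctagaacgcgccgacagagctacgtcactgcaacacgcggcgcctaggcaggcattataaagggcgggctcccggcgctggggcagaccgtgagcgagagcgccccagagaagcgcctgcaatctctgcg
Ankrd23: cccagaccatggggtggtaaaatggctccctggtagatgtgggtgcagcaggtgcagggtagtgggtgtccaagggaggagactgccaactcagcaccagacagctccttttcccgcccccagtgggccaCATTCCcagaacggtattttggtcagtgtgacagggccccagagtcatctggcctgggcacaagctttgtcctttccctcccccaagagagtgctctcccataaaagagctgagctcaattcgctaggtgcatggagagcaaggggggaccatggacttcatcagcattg

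The Ankrd1 window held 2 copies of GGAATG, which began 210 and 123 bases upstream of the gene start. The Ccn1 window held 1 copy, which began 103 bases upstream. Ankrd23 has a pair of promoter windows in RefSeq, and each held 1 copy, 120 bases upstream of the start in the window printed above and 36 bases downstream of its own start in the other. The windows of Ankrd2 and Ccn6 held none. Of all 32851 mouse promoter windows of this length, 14.7% held GGAATG on either strand and 1.36% held at least 2 copies. None of the members' windows held a CArG box, the site of serum response factor, searched by its usual consensus (found in 1.63% of all windows), or the AP-1 site TGANTCA (7.81%). TATAAA, searched on both strands and found in 13.6% of all windows, occurred in those of Ccn1 and Ankrd2. No match of one motif overlapped a match of another. A match describes these letters only.

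Each target has 1 deposited intensity per array, on a linear scale, which for 44155 of the 44170 targets summarises 3 probes. Values of 100 and over were treated as well above background, since the 20620 targets of the authors' value table are those at 100 or more on all 4 arrays. Random-sequence probes read 48.1 and 52.3 on the Men1 siRNA arrays, against 45.5 and 42.8 on the scramble siRNA arrays. Men1 itself read 2764 and 4109 on the Men1 siRNA arrays, against 6985 and 6222 on the scramble siRNA arrays, a difference of −0.97 ± 0.35 on the log2 scale (SE, n = 2 each) with an adjusted p of 0.314 in limma, short of the threshold of 0.05. Markers of the labelled cell type were uneven. The neuronal genes Tubb3, Snap25 and Syn1 were bright on all 4 arrays, whereas Th, the enzyme gene of catecholamine synthesis, was near 100, with 141.6 and 112.8 on the Men1 siRNA arrays and 95.0 and 128.9 on the scramble siRNA arrays.

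**Figure D1:**
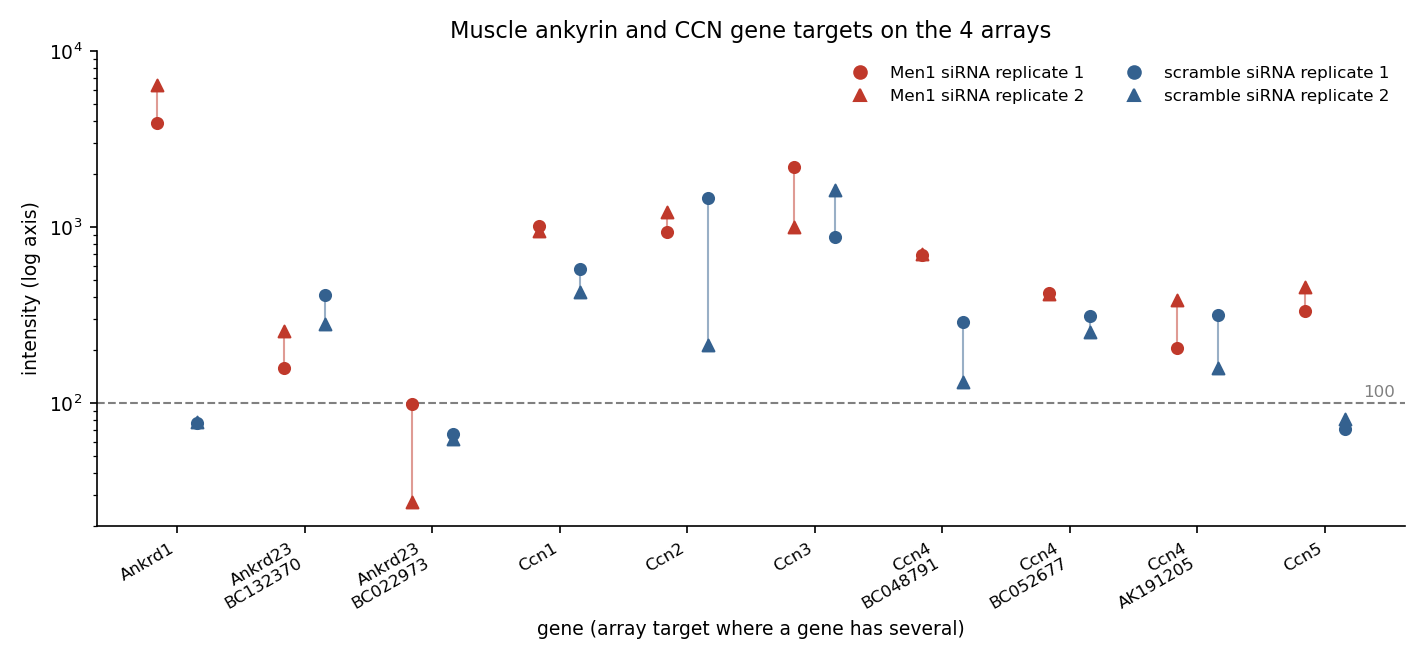
Intensity (log axis) of each muscle ankyrin and CCN target on the 4 arrays, with the Men1 siRNA arrays in red to the left of the scramble siRNA arrays in blue; circles are replicate 1, triangles replicate 2, and the dashed line is an intensity of 100. Ankrd1 read 3888 and 6396 with Men1 siRNA and lay under 100 with scramble siRNA, Ccn5 lay under 100 only with scramble siRNA, and the scramble siRNA arrays of Ccn2 lie far apart.

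Among the ankyrin genes, Ankrd1 (gene ID 107765, chr19:36186454-36194323 on MM9, 1 target) read 3888 and 6396 on the Men1 siRNA arrays and 76.4 and 78.1 on the scramble siRNA arrays. It was bright on both Men1 siRNA arrays and near background on both scramble siRNA arrays, with no overlap. Its log2 change was 6.01 ± 0.37 (SE, n = 2 per group), the highest of all 24171 genes. Because both scramble siRNA arrays were under 100, the fold is a bound, at least 49.9-fold higher. Its Men1 siRNA arrays differed from each other by 1.65-fold, and leaving out any 1 array moved the log2 change only between 5.65 and 6.37.

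Of the 7 member genes, Ankrd1 alone passed a threshold of 0.05 after Benjamini-Hochberg adjustment over all genes in limma, where 0.389% of all genes passed in either direction and 0.0372% passed as higher with Men1 siRNA. Since the members were chosen on this difference, the count is a description and nothing is read from it. With any 1 of the 4 arrays left out, or with values floored at 100, Ankrd1 did not pass, and nor did it with crossed replicate numbers as a block. Of the 16 other fits that hold both genes, Ankrd1 was past the threshold in 10 and Ccn5 in 3, those with a pseudocount of 32, with genes at 100 on at least 2 arrays and with a trended prior.

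Ankrd23 (gene ID 78321, chromosome 1), which encodes a titin-binding protein induced in diabetic muscle, did not follow Ankrd1. Its brighter target (BC132370, chr1:36588170-36592584 on MM9) read 158.3 and 257.2 on the Men1 siRNA arrays and 408.1 and 281.3 on the scramble siRNA arrays. The groups did not overlap, but their nearest values were close. The log2 change was −0.75 ± 0.40 (SE, n = 2 per group), between −1.10 and −0.40 with 1 array left out. Its other target (BC022973, chr1:36587378-36596203) was under 100 on all 4 arrays, with 98.3 and 27.5 on the Men1 siRNA arrays and 66.2 and 62.2 on the scramble siRNA arrays, so it gives no fold, and its sign changed without Men1 siRNA replicate 2. Both transcripts come from 1 gene and overlap on the chromosome, so they are not separate evidence.

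Of the CCN genes, Ccn1 and Ccn2 are the serum-inducible, growth-promoting members. Ccn1 (gene ID 16007, chr3:145309939-145312929 on MM9) promotes adhesion and blood vessel growth, and it read 1013 and 946.8 on the Men1 siRNA arrays and 578.8 and 427.2 on the scramble siRNA arrays. The groups did not overlap, and the Men1 siRNA arrays were close to each other. The log2 change was 0.98 ± 0.33 (SE, n = 2 per group), a 1.97-fold higher level, and stayed between 0.76 and 1.20 with 1 array left out.

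Ccn2 (gene ID 14219, chr10:24315326-24318488 on MM9), the profibrotic connective tissue growth factor, read 929.8 and 1213 on the Men1 siRNA arrays and 1460 and 212.8 on the scramble siRNA arrays. The Men1 siRNA values lay between the scramble siRNA values, so no direction is settled. The log2 change of 0.93 ± 0.89 (SE, n = 2 per group) became −0.46 without scramble siRNA replicate 2 and 2.32 without scramble siRNA replicate 1. The scramble siRNA arrays differed by 6.86-fold at Ccn2. Of the 23266 targets that reached 100 on both scramble siRNA arrays, 0.0516% differed by as much, and the median ratio was 1.26.

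Ccn3 (gene ID 18133, chr15:54577476-54585316 on MM9), first known from nephroblastoma and counted among the growth-restraining CCN proteins, read 2185 and 1002 on the Men1 siRNA arrays and 875.7 and 1624 on the scramble siRNA arrays. The groups overlapped on both sides. The log2 change of 0.31 ± 0.52 (SE, n = 2 per group) was smaller than its error and turned negative without Men1 siRNA replicate 1 (−0.25) and without scramble siRNA replicate 1 (−0.13). In Ccn3 the brighter array was replicate 1 with Men1 siRNA and replicate 2 with scramble siRNA, while in Ccn2 it was replicate 2 with Men1 siRNA and replicate 1 with scramble siRNA.

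Ccn4 and Ccn5 were first described as genes induced by Wnt1. Ccn4 (gene ID 22402, chromosome 15) was covered by 3 targets, which differed in size of change. The brightest of them (BC048791, chr15:66722954-66754761 on MM9) read 692.3 and 697.7 on the Men1 siRNA arrays and 287.2 and 131.1 on the scramble siRNA arrays. Its Men1 siRNA arrays were almost equal, and both lay well above the scramble siRNA arrays, which differed from each other by 2.19-fold. The log2 change at this target was 1.84 ± 0.45 (SE, n = 2 per group), and it ran between 1.27 and 2.41 with 1 array left out.

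The second Ccn4 target (BC052677, chr15:66722992-66751615) covers nearly the same stretch and read 423.1 and 416.1 on the Men1 siRNA arrays and 312.2 and 252.7 on the scramble siRNA arrays. It was again higher without overlap, but its log2 change was 0.58 ± 0.33 (SE, n = 2 per group). The third, a clone inside the gene (AK191205, chr15:66738181-66744651), read 205.2 and 382.2 on the Men1 siRNA arrays and 317.3 and 158.2 on the scramble siRNA arrays. There the groups overlapped, and the log2 change was 0.32 ± 0.50 (SE, n = 2 per group). It turned negative without Men1 siRNA replicate 2 (−0.13) and without scramble siRNA replicate 2 (−0.18). The mean of the 3 Ccn4 targets gave 0.91, less than the value at the brightest, and the 3 targets share a gene and are not replicates.

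Ccn5 (gene ID 22403, chr2:163646644-163658883 on MM9, 1 target) encodes the CCN protein that lacks the C-terminal cysteine knot module and restrains smooth muscle growth. It read 331.2 and 456.9 on the Men1 siRNA arrays and 71.4 and 80.6 on the scramble siRNA arrays. As for Ankrd1, the scramble siRNA arrays were both near background and the Men1 siRNA arrays both above 100. The log2 change was 2.36 ± 0.34 (SE, n = 2 per group), and the fold is at least 3.89. It stayed between 2.13 and 2.59 with 1 array left out.

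**Figure D2:**
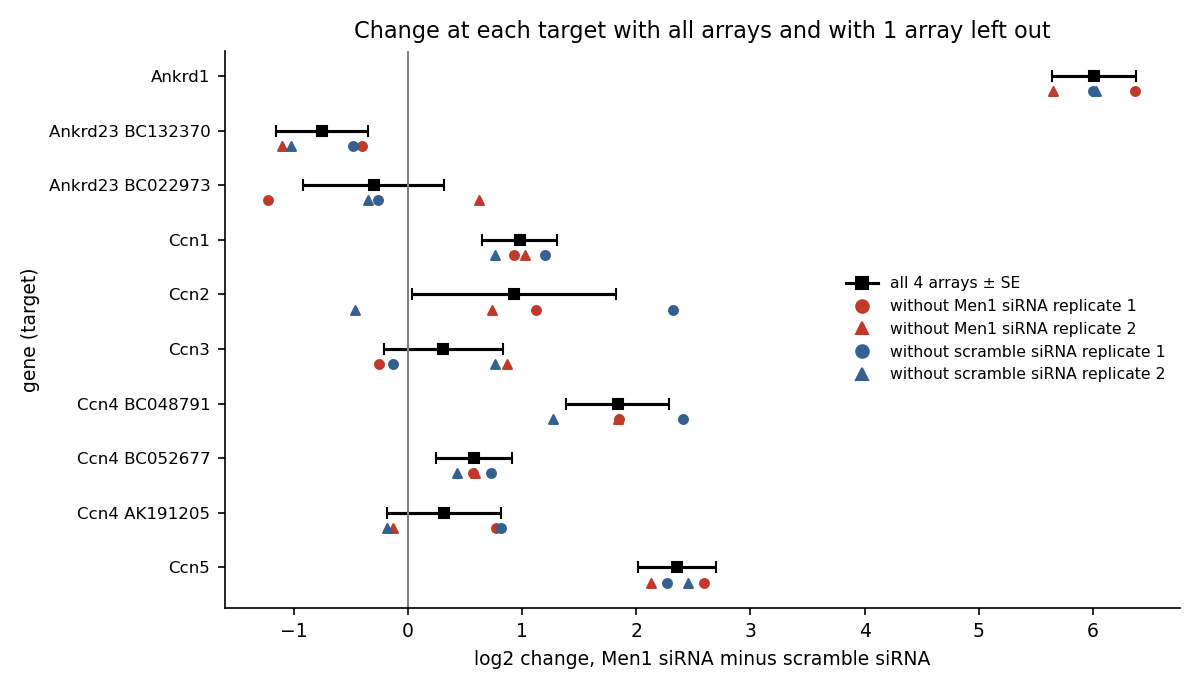
Log2 change (Men1 siRNA minus scramble siRNA) at each of the 10 targets, with black squares for all 4 arrays and bars for the moderated SE, and coloured points below them for fits without 1 array. Ankrd1 stays between 5.65 and 6.37 and Ccn5 between 2.13 and 2.59, while Ccn2 spans −0.46 to 2.32.

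Over the 10 targets, the arrays of the groups lay apart with Men1 siRNA higher at 5, apart with Men1 siRNA lower at 1, and overlapped at 4. Over all targets of the array 46.6% lay apart, 25.3% with Men1 siRNA higher and 21.3% with Men1 siRNA lower. By gene, 4 of the 7 were higher without overlap, 1 was lower and 2 overlapped, where 47.5% of all genes lay apart, 25.8% with Men1 siRNA higher. The median log2 change of the 7 genes was 0.98, against 0.06 over all 24171 genes. Since the choice of the families rests on these same differences, the counts describe the members and support nothing. In the ranking of all genes by log2 change, 0.132% were above Ccn5, 0.389% above Ccn4, 6.74% above Ccn1, 7.87% above Ccn2, 33.8% above Ccn3 and 87.5% above Ankrd23. Ccn4 stands there by its brightest target, at 1.84, while the mean of its targets gave 0.91.

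**Figure D3:**
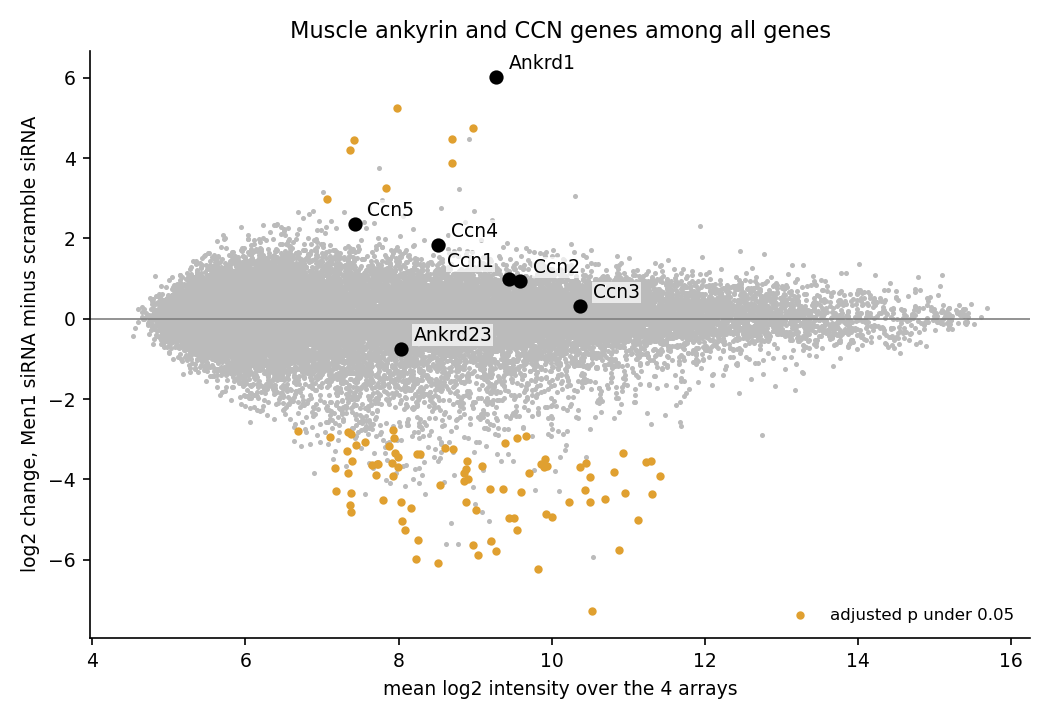
Log2 change (Men1 siRNA minus scramble siRNA) of every gene against its mean log2 intensity over the 4 arrays, with member genes in black and other genes with an adjusted p under 0.05 in limma in orange. Ankrd1 stands at the top at 6.01, Ccn5 at 2.36 and Ccn4 at 1.84 lie at the upper edge of the cloud, and Ccn1, Ccn2, Ccn3 and Ankrd23 lie within it. Ccn4 is drawn by its brightest target, and its other targets changed less.

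The genes whose 4-array profile was most like that of Ankrd1 were found by Euclidean distance on log2 values centred on each gene's mean. In order of distance they were Fabp4 (1.51), Car3 (1.87), Cyp4a12a (1.90), Tnpo1 (2.18), Msln (2.76) and Hsd3b3 (2.85), with 3 clone or predicted names also closer than the last. Fabp4, a fatty acid carrier of adipocytes, read 2985 and 2250 on the Men1 siRNA arrays and 107.2 and 87.2 on the scramble siRNA arrays. Msln, a surface protein of mesothelium, read 572.0 and 872.3 on the Men1 siRNA arrays and 69.6 and 78.8 on the scramble siRNA arrays. Tnpo1, a nuclear import receptor gene, read 2412 and 2173 on the Men1 siRNA arrays and 203.6 and 52.1 on the scramble siRNA arrays. All 3 were bright on both Men1 siRNA arrays, and Tnpo1 reached 100 on 1 of the 2 scramble siRNA arrays as Fabp4 did, while Msln reached it on neither. Among the members, Ccn5 was closest to Ankrd1 at 3.66 (0.091% of all genes were closer), then Ccn4 at 4.28, and Ankrd23 was farthest at 6.77. The distance is built from the same 4 values as the difference on which the families were selected. This likeness is therefore a description and supports nothing.

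The neighbours of Ankrd1 and Ccn5 on the chromosome had smaller log2 changes than these 2 genes. Both belong to families selected on this difference. Ankrd1 had the highest log2 change of all genes, and 0.132% of genes were above Ccn5. The comparison was therefore close to fixed in advance, and it is a description that supports nothing. Within 500 kb on either side of Ankrd1 on MM9, the 7 measured genes had log2 changes between −0.51 and 0.96. Of them 0 passed in limma, where 0.389% of all genes did. Rpp30, a subunit gene of ribonuclease P, had the 0.96, and its groups lay apart with Men1 siRNA higher, as did those of Pcgf5 (0.39). Within 500 kb of Ccn5, the 27 measured genes had values between −1.15 (Wfdc15b) and 1.29 (Rims4), and again 0 passed. The groups lay apart at Wfdc15b with Men1 siRNA lower and at Rims4 with Men1 siRNA higher.

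Other genes of the related pathways were measured to set beside the members. Over 5 lists with 83 measured genes, 0 passed in limma, where 0.389% of all genes did. Of the 83, 25 had an unadjusted p under 0.05, where 14.2% of all genes did. Over all 24171 genes 13162 log2 changes were positive and 11009 negative. The first list holds further targets of YAP, TAZ and TEAD. Of 18 such genes, 0 passed in limma in either direction (adjusted over all genes), 8 were positive and 10 negative, and the median log2 change was −0.09, against 0.06 over all genes. Gadd45a, a growth arrest gene, read 1169 and 1074 on the Men1 siRNA arrays and 4845 and 3628 on the scramble siRNA arrays, so its log2 change was −1.90 ± 0.33 (SE, 2 arrays per group), with an adjusted p of 0.104 in limma. Igfbp3, which binds insulin-like growth factors, had −1.40 ± 0.35 and the RNA-binding protein gene Rbms3 −0.80 ± 0.31. Crim1, a transmembrane cysteine-rich protein gene, had 0.99 ± 0.32, close to the value of Ccn1. Nt5e, the ecto-nucleotidase gene, was at least 1.92-fold lower (limma adjusted p = 0.327), with both Men1 siRNA arrays under 100.

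The Hippo pathway itself was measured through 20 genes, of which 0 passed, where 0.389% of all genes did. Of these 20, 6 were positive and 14 negative, with a median of −0.25, against 0.06 over all genes. Lats2 and Ptpn14 stand on this list and on that of YAP targets. Yap1, the co-activator gene, read 498.1 and 524.7 on the Men1 siRNA arrays and 1766 and 1281 on the scramble siRNA arrays, so its log2 change was −1.56 ± 0.33 (SE, 2 arrays per group), with an adjusted p of 0.155 in limma. Tead3, a partner of Yap1, had −2.53 ± 0.47, with 179.6 and 377.5 on the Men1 siRNA arrays and 1834 and 1228 on the scramble siRNA arrays, and Tead4 was at least 1.63-fold lower (limma adjusted p = 0.291). The inhibitory adaptors Mob1a and Sav1 had −1.37 ± 0.39 and −1.16 ± 0.35.

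Genes of serum response factor and its MRTF co-activators, which also act on Ccn1, Ccn2 and muscle genes, were split. Of 17, 0 passed, where 0.389% of all genes did, and 9 were positive and 8 negative, with a median of 0.18. Tagln, an actin-binding protein gene of smooth muscle, read 1136 and 1474 on the Men1 siRNA arrays and 138.4 and 289.1 on the scramble siRNA arrays, so its log2 change was 2.69 ± 0.45 (SE, 2 arrays per group), with an adjusted p of 0.0979 in limma. Smooth muscle actin, Acta2, had 1.61 ± 0.42, and Fhl2, a LIM protein gene of heart, had 1.57 ± 0.30 with 336.0 and 326.9 on the Men1 siRNA arrays and 111.2 and 111.7 on the scramble siRNA arrays. Filamin A, Flna, had −1.12 ± 0.35, and Srf itself −1.11 ± 0.45.

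Receptors and partners through which CCN proteins act were mostly at lower values. Of 18 genes 0 passed, where 0.389% of all genes did. Of the 18, 4 were positive and 14 negative, and the median log2 change was −1.0, against 0.06 over all genes. The groups lay apart with Men1 siRNA lower for 14 of them and higher for 1, where 21.7% and 25.8% of all genes did. On the other lists, lower and higher in turn, it was 6 and 5 of 18 YAP, TAZ and TEAD targets and 9 and 2 of 20 Hippo genes. It was 7 and 6 of 17 SRF and MRTF genes and 4 and 3 of 12 genes of titin and other muscle ankyrin partners. Perlecan, Hspg2, a matrix proteoglycan, had −1.95 ± 0.34 (SE, 2 arrays per group) and an adjusted p of 0.104 in limma, with 314.8 and 444.3 on the Men1 siRNA arrays and 1434 and 1451 on the scramble siRNA arrays. The integrin genes Itga6 and Itgb3 had −1.79 ± 0.43 and −1.73 ± 0.52, fibronectin, Fn1, had −1.54 ± 0.38, and the syndecan gene Sdc4 had −1.68 ± 0.56.

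Genes of titin and of other partners of the muscle ankyrin proteins, not all of them sarcomere genes, gave no common direction. Of 12, 0 passed, where 0.389% of all genes did, 8 were positive and 4 negative, and the median was 0.04. Des, the muscle intermediate filament desmin, read 61.9 and 86.9 on the Men1 siRNA arrays and 419.2 and 454.2 on the scramble siRNA arrays, at least 4.36-fold lower without passing (limma adjusted p = 0.0639). Capn3, a calpain that binds titin, was at least 1.35-fold lower, and the ubiquitin ligase gene Trim63 at least 1.52-fold higher, neither past the threshold. Trp53, whose protein binds Ankrd2, had −0.72 ± 0.33. Mypn, the partner of Ankrd1 on the filament, and Casq2, Myot and Csrp3 were under 100 on all 4 arrays, so they give no fold.

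**Figure D4:**
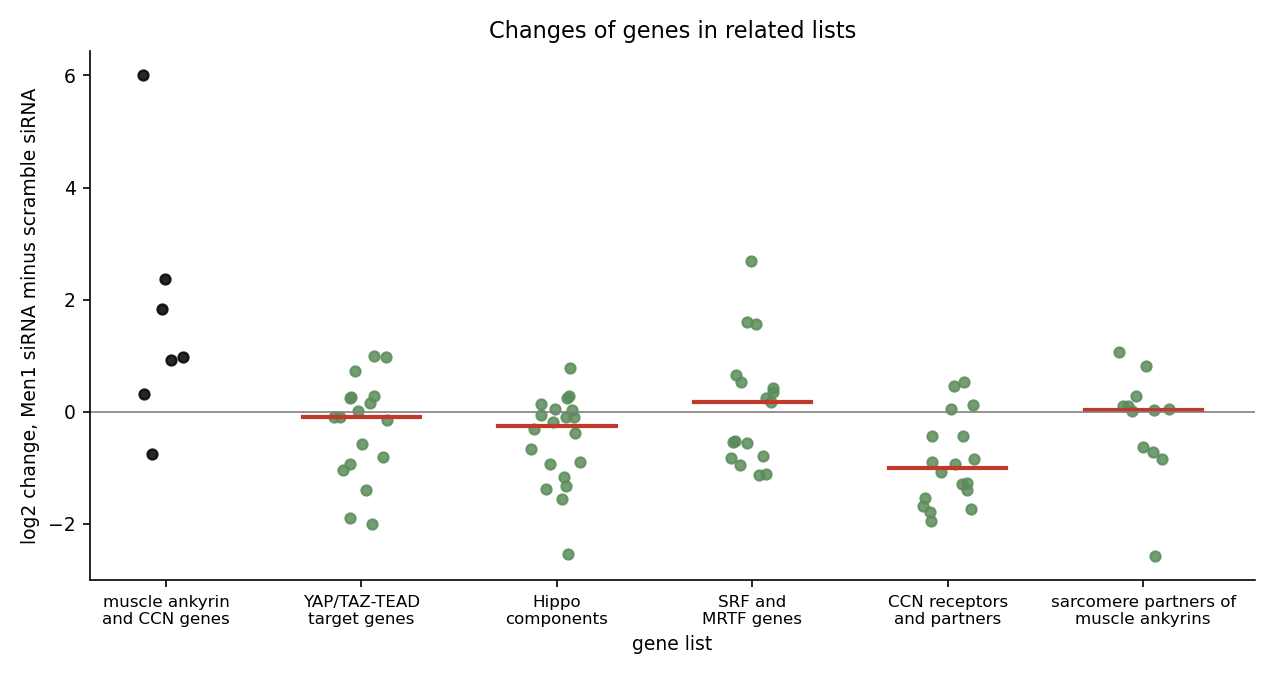
Log2 change (Men1 siRNA minus scramble siRNA) of each member gene in black and of each gene in 5 related lists in green, with a red bar at the median of each related list. Points are spread sideways only to be seen; Ankrd1 at 6.01 lies above every gene of the other lists, whose medians run from −1.0 for CCN receptors and partners to 0.18 for the SRF and MRTF genes.

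Markers of other cell types that could carry Ankrd1 or CCN transcripts differed between the groups, and their part in the members' values was not tested. Calls below rest on all 4 arrays: leaving out a single one gave 0 calls in limma in each case, while the unadjusted p was under 0.05 for 2105 to 3357 genes. In such bulk samples, more cells of a type and more RNA per cell cannot be told apart. Striated muscle markers, where Ankrd1 is best known, summed to 2357 and 3371 on the Men1 siRNA arrays and 3241 and 3087 on the scramble siRNA arrays. Of 19 striated muscle markers 0 passed, where 0.389% of all genes did, and 10 were positive and 9 negative. The groups lay apart with Men1 siRNA higher at 5 and lower at 3, where 25.8% and 21.7% of all genes did. Des, also on this list, was at least 4.36-fold lower with Men1 siRNA (limma adjusted p = 0.0639). Myl7, Myod1, Nppa and Nppb were under 100 on all 4 arrays. Creatine kinase, Ckm, exceeded 100 on 1 array only, with 60.0 and 146.0 on the Men1 siRNA arrays and 29.0 and 43.0 on the scramble siRNA arrays. The striated muscle sum overlapped between the groups.

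Adipocyte markers were higher with Men1 siRNA, as Ankrd1 and Ccn5 were, with summed intensities of 9478 and 6148 on the Men1 siRNA arrays and 874 and 761 on the scramble siRNA arrays. All 8 were positive and 2 rose past the threshold, Fabp4 (4.74 ± 0.34, limma adjusted p = 0.0281) and Car3 (4.48 ± 0.43, limma adjusted p = 0.0364). Over all 24171 genes 13162 were positive, and 0.0372% passed as higher. Smooth muscle markers summed to 12451 and 16668 with Men1 siRNA and 5056 and 8077 with scramble siRNA, most of it Acta2. Of those 6 markers 0 passed, and 4 were negative, Des and Myh11 among them.

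Fibroblast and endothelial markers, whose cells are known sources of Ccn1 and Ccn2, went the other way. Over all 24171 genes 11009 were negative, and 0.352% passed as lower. The 10 fibroblast markers summed to 4742 and 4748 on the Men1 siRNA arrays and 41135 and 42102 on the scramble siRNA arrays, all 10 were negative and 3 fell past the threshold, among them Col1a1 (−4.37 ± 0.34, limma adjusted p = 0.0327) and Col6a1 (−4.57 ± 0.39, limma adjusted p = 0.0346). The 6 endothelial markers summed to 1270 and 1154 with Men1 siRNA and 7703 and 4386 with scramble siRNA, and 1 of them, Emcn, fell (limma adjusted p = 0.0452, at least 4.5-fold lower). Cdh5, the cadherin of vessel walls, had 229.0 and 153.5 with Men1 siRNA and 2030 and 1416 with scramble siRNA without passing (limma adjusted p = 0.0521).

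Mesothelial markers were divided, where 0.0372% of all genes passed as higher and 0.352% as lower. Of 6, Msln rose, at least 7.06-fold higher (limma adjusted p = 0.0408), while Krt8 (−3.67 ± 0.32, limma adjusted p = 0.0346) and Wt1 (−3.22 ± 0.37, limma adjusted p = 0.0452) fell, and their sum was 1049 and 1459 on the Men1 siRNA arrays against 5243 and 4052 on the scramble siRNA arrays. Upk3b, another marker on this list, was under 100 on all 4 arrays. Neuronal markers summed to 89638 and 96583 with Men1 siRNA and 66804 and 76411 with scramble siRNA. All 7 were positive, with a median log2 change of 0.53, and 0 passed the threshold. At 5 of them the groups lay apart with Men1 siRNA higher, where 25.8% of all genes did. The 6 measured sympathoadrenal neuroblast markers summed to 2658 and 2168 with Men1 siRNA and 1508 and 2547 with scramble siRNA, with 0 past the threshold. Among them Gata3 had a log2 change of −1.83 ± 0.40.

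**Figure D5:**
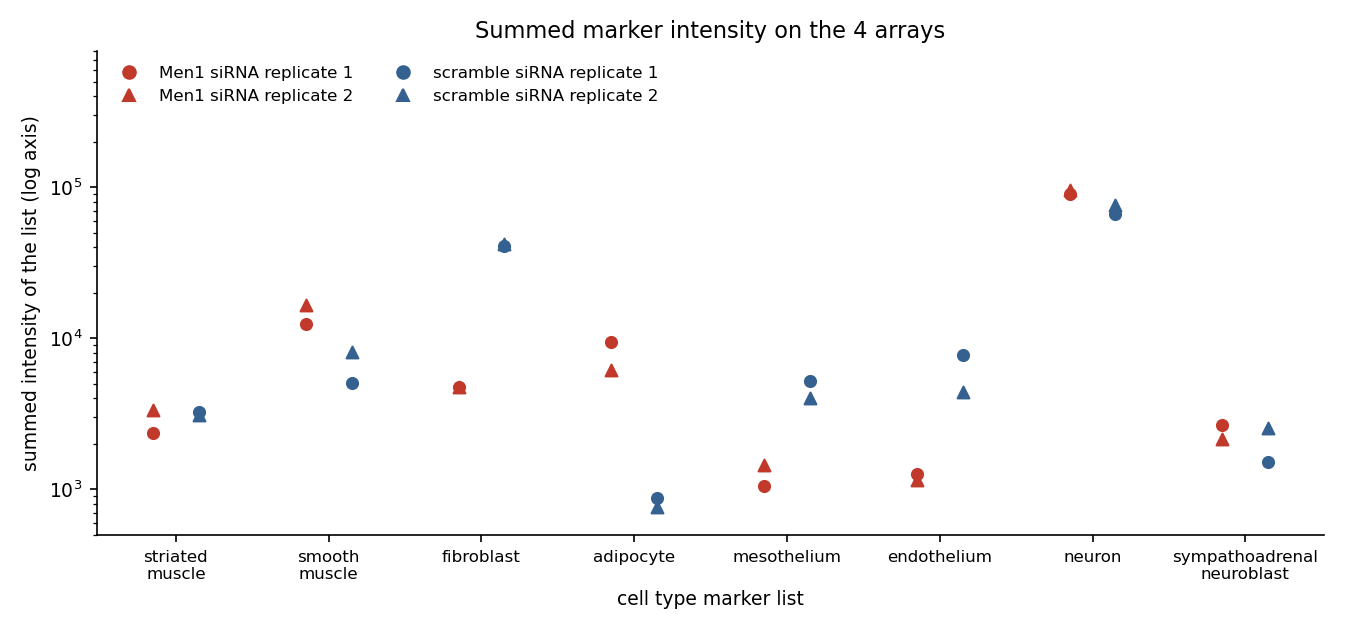
Summed intensity (log axis) of each cell type marker list on the 4 arrays, with Men1 siRNA in red to the left of scramble siRNA in blue, circles for replicate 1 and triangles for replicate 2. Adipocyte, smooth muscle and neuronal sums are higher with Men1 siRNA, and fibroblast, mesothelial and endothelial sums are lower. The striated muscle and sympathoadrenal neuroblast sums overlap.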

How the data were processed

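Total RNA was measured on 4 single-colour arrays, 2 per group. They were treated as NimbleGen arrays after the labelling protocol and the file format, although the series text names an Agilent array. The deposited files carry intensities on a linear scale, which their names credit to RMA (robust multi-array averaging), and per the file headers targets are placed on MM9. The sources used here give no background correction, scanner software or probe sequence. On each array 40.2% to 41.0% of the targets read under 100. Across targets, which are not independent, r was 0.945 between the Men1 siRNA arrays and 0.948 between the scramble siRNA arrays. Replicate numbers are uncertain: scan names inside the files do not follow them throughout, and the 2 scramble siRNA columns of the authors' value table hold each other's intensities (20617 of 20620 targets equal within a relative tolerance of 1e-04).

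Symbols were updated through NCBI gene IDs (21583 of 24203 matched). A gene was represented by its target of highest mean log2 intensity. Log2 intensities, without pseudocount or further normalization, went into limma 3.58.1 (lmFit, then eBayes; R 4.3.3). Group was the sole term, p-values were two-sided, and the Benjamini-Hochberg adjustment ran over all 24171 genes at a threshold of 0.05. SEs are moderated, and those of a gene's further targets come from a fit of all 44170 targets. A fold is "at least" where both arrays of the dimmer group lay under 100: the mean intensity of the brighter group is then set against 100, on the log2 scale. With so few arrays the precision is limited, and an exact permutation test of 2 against 2 has 0.33 as its smallest two-sided p. The fit was checked on simulated data. Alternatives changed the normalization, pseudocount, filter, prior, choice of target and replicate block, or left out 1 array. Members and gene lists were chosen with earlier results of these data known. Named genes were the members, Men1, the genes of smallest p in each list (up to 5 per related list, 2 per marker list) and the 6 profiles nearest to Ankrd1. Other genes named as examples were chosen after their values were seen. Some genes that this rule names are not reported here. Tables and figures were made with pandas 2.3.3, numpy 2.4.6 and matplotlib 3.10.9 under Python 3.11.15.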

Additional observations from a re-analysis of the deposited data

How the results depend on the processing

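Over all genes 94 passed in limma. With the replicate number as a block 69 passed, Ankrd1 among them, and its log2 change of 6.01 is the same by construction. The labels do not say what a number shares, and the deviations of same-numbered arrays from their group means correlated weakly and negatively (r = −0.175 across genes). With crossed numbers as a block, chosen after seeing the data, 0 passed, with 3980 at an unadjusted p under 0.05. Among the 16302 genes at 100 on at least 2 arrays the count was 289, and among the 12701 genes of the series value table it was 418. With each target alone 150 of the 44170 targets passed. Over all genes the count was 252 with a pseudocount of 32, 711 with a trended prior and 8 with a floor at 100, which was chosen after seeing the data. With any 1 array left out it was 0 throughout (lowest and highest 0, with 2105 to 3357 at an unadjusted p under 0.05). Of the 83 genes in the related lists 0 passed, with 25 at an unadjusted p under 0.05 and 0 under the replicate block. The count was 2 with a pseudocount of 32 (Des and Gadd45a), 1 among genes at 100 on at least 2 arrays (Des), 11 with a trended prior, 6 in the series value table and 2 with each target alone (Fn1 and Hspg2), and 0 with any 1 array left out. The log2 change of Ankrd1 was 5.52 with the pseudocount, 5.64 with the floor and 5.65 to 6.37 with 1 array left out. Ccn5 had 1.97 and 1.96 with the pseudocount and the floor. Ankrd1, Ccn1, Ccn5, the brighter target of Ankrd23 and 2 of the 3 targets of Ccn4 kept their sign in every alternative. Ankrd1, Ccn5 and the dimmer Ankrd23 target are not in the value table. The cause of these differences was not tested.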
